A study of Mus musculus with 18 samples.

Results

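Gene expression in mouse liver after ischemia and reperfusion (IR) was compared with that in sham-operated liver across all expressed genes. The comparison takes 12 of the 18 RNA sequencing libraries of the series, all 6 labelled IR and all 6 labelled sham, chosen by those labels alone. All came from wild-type C57BL/6 mice, whose age and sex the sources used here do not give. Sham mice were anaesthetised and had the abdomen opened, with no clamping, so that anaesthesia and laparotomy are common to both groups. In IR mice, clips on the portal triad stopped the blood flow to the median and left lobes, about 70% of the liver, for 1 h, and blood then returned for 6 h. The sources used here do not give the sampled lobe or the clock time of collection. Nor do they state that each library stands for its own animal, so p-values measure the spread between these libraries only. The third group of 6 libraries, reperfused livers that also received the plant diterpenoid oridonin (IR-Ori), entered the statistical fit only, to estimate the spread.

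Clamping of the liver's blood supply deprives hepatocytes of oxygen and energy, and the returning blood brings oxidants and leukocytes. The early hours of such injury are known for stress signalling through MAP kinases and cytokine receptors, growth factor release, remodelling of the cytoskeleton and matrix, and lower expression of the specialised metabolic genes of hepatocytes. Bulk RNA from whole tissue sums over all its cells, so a change in the number of cells of a type and a change in RNA per cell cannot be told apart.

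Of 14595 genes with enough counts to test, 806 rose in IR, 5.52% of those tested, and 345 fell, 2.36%; 7.89% changed either way (edgeR quasi-likelihood test, Benjamini-Hochberg adjusted p below 0.05). The median log2 fold change was 1.5 among the genes that rose and -1.10 among those that fell, and 623 and 207 of them changed at least 2-fold. Changes of at least 8-fold numbered 104 upward and 10 downward. On the deposited FPKM, counts scaled by exon length and library total, all 6 IR libraries lay above all 6 sham libraries for 298 genes (2.04%) and below them for 165 (1.13%). Libraries held 12449529 to 19798188 counts, and mitochondrially encoded genes took 10.3 to 42.8% of them in sham and 6.52 to 42.9% in IR. The share split the 12 libraries evenly into 6 under 15% (sham 1, 3 and 4 and IR 4, 5 and 6) and 6 at 15% or more. Among the genes that rose and could be tested in both sets, 770 of 772 had a positive fold change in both, with a median of 1.87 in the low-share and 0.84 in the high-share libraries. Of the genes that fell, 333 of 333 were lower in both, with medians of -1.30 and -0.82. These genes were called in a fit that held the same 12 libraries. A shared sign in both sets was therefore largely fixed by that choice and is no separate support for the calls. Calls rested in part on single libraries: 382 of the 806 and 111 of the 345 stayed past the threshold whichever 1 of the 12 was left out. The upward count moved by over 1.5 times without IR 4 (442), IR 5 (485), sham 5 (499) or sham 6 (535), and the downward count without IR 1 (640), IR 4 (139), IR 5 (134) or sham 4 (207). Genes below are called whichever library was left out unless libraries are named. The 15 largest changes each way named below were chosen among genes without overlap, so for these the separation was a condition of choice.

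**Figure D1:**
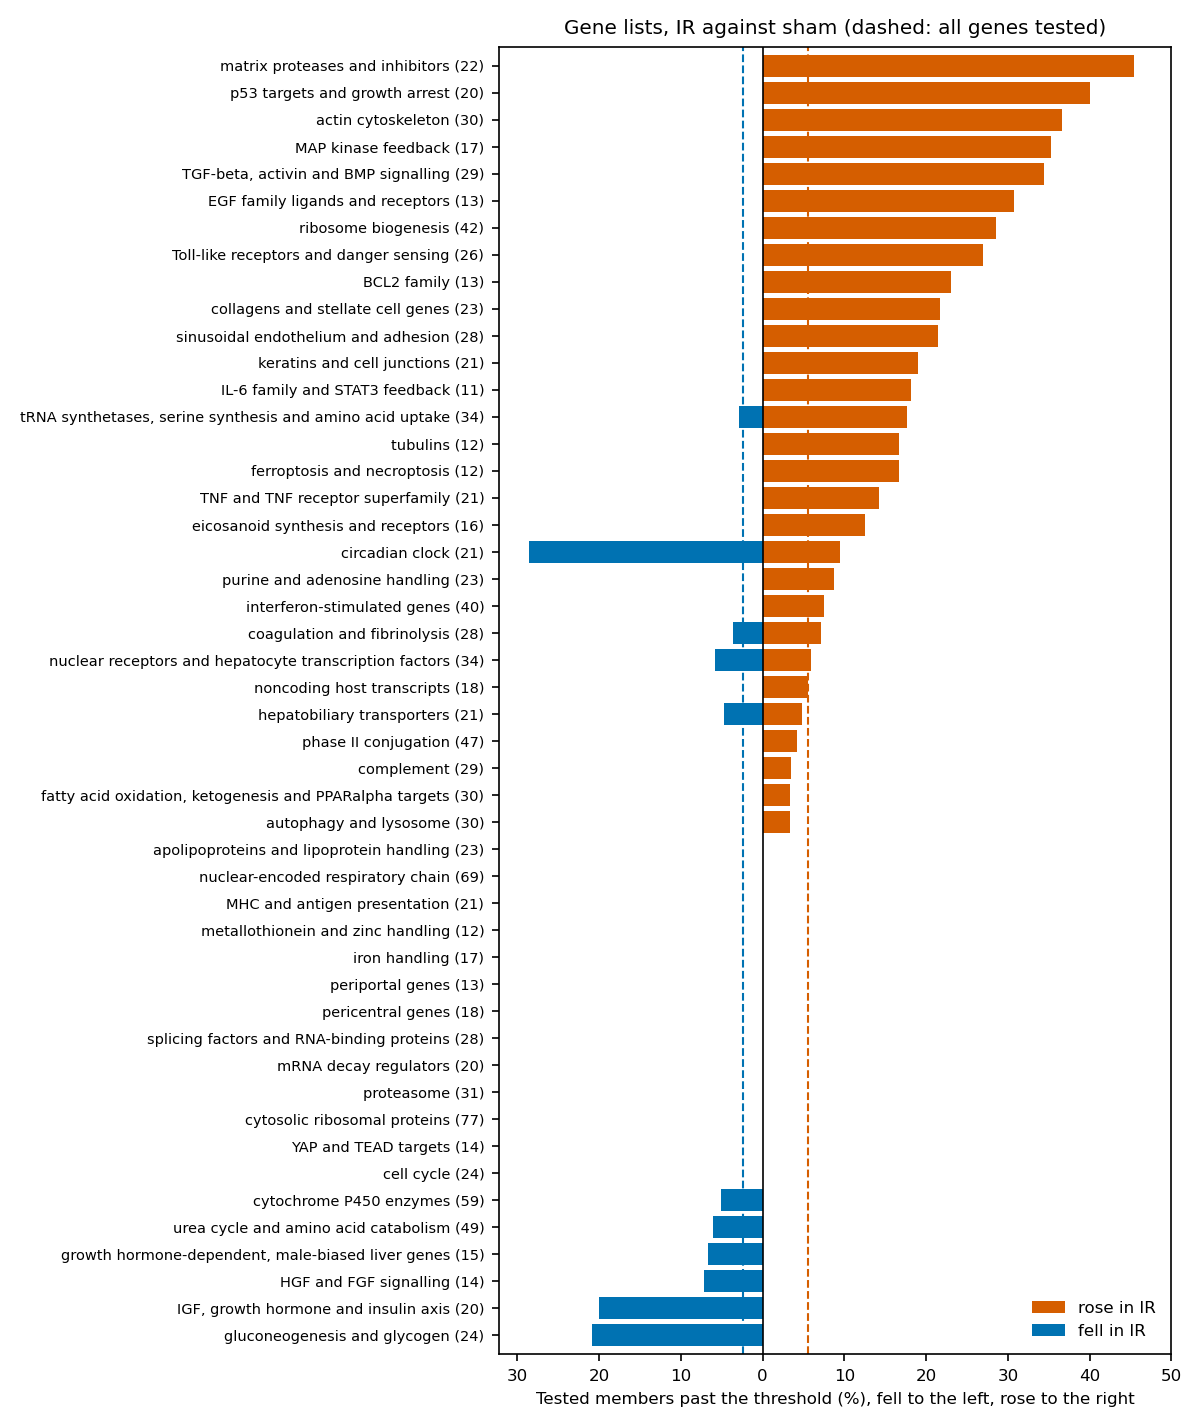
Percent of the tested members of 48 gene lists that rose (right, orange) or fell (left, blue) in IR against sham, with the number tested after each list's name; dashed lines mark the 5.52% and 2.36% of all 14595 genes. Calls are from edgeR: 45.5% of matrix proteases and inhibitors and 40.0% of growth arrest genes rose, and 28.6% of circadian clock genes fell.

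The tissue carried the markers of liver. Summed FPKM of 8 hepatocyte markers ran from 15750 to 54000 in sham and from 26540 to 37770 in IR, and 0 of the 8 passed (edgeR; 0 at an unadjusted p below 0.05, 0 in DESeq2 and in limma). All 5 tested neutrophil markers rose, with summed FPKM of 3.75 to 25.6 in sham and 59.7 to 288 in IR, and 4 of 5 monocyte markers rose, from 0.65 to 2.62 in sham to 5.38 to 39.3 in IR. Markers of Kupffer cells, the resident macrophages, summed to 44.3 to 105 in sham and 54.2 to 109 in IR. None of the 7 passed, nor did any of the 15 tested markers of T and NK cells, B cells, red cells and platelets (edgeR, DESeq2 and limma; unadjusted p below 0.05 for 0 Kupffer, 1 B cell and 3 red cell markers). Sinusoidal endothelium had 3 of 6 markers higher (11.5 to 35.5 in sham, 19.7 to 53.4 in IR), stellate cells 1 of 6, cholangiocytes 1 of 5 and adipocytes the only one tested. The 5 markers of pancreas or gut summed to 14.9 to 127 FPKM in sham and 32.3 to 203 in IR, with Prss1 the only one at 0 in all 12 libraries. Neither of the 2 that could be tested passed in edgeR, DESeq2 or limma (0 at an unadjusted p below 0.05).

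A set of 48 gene lists held 1238 of the tested genes, of which 121 rose and 28 fell. Among lists of secreted signals and their receptors, 4 of 13 EGF family genes rose (30.8% against 5.52% of all genes) and 0 fell in edgeR. Of the 4, 2 were called whichever library was left out. DESeq2 called 4 higher and limma 0, or 1 without its filter. The low-share libraries called 6 and the high-share libraries 0. Ereg, which encodes the ligand epiregulin, stood at 0, 0.05 and 0.06 FPKM in sham and 0.21, 0.53 and 1.57 in IR (lowest, median and highest library, the order used throughout), a log2 fold change of 3.86 ± 0.73, adjusted p = 0.00373. Hbegf, heparin-binding EGF, was at 0.06, 0.135 and 0.37 FPKM in sham and 0.18, 1.06 and 17.7 in IR, a log2 fold change of 4.37 ± 0.97, adjusted p = 0.0104, and it was 2.02 without IR 6. Below, a signed value with ±, or one given alone after a gene's name, is also a log2 fold change. Ereg separated the groups without overlap, whereas Hbegf overlapped and was highest in IR 6 by a wide margin. The betacellulin gene Btc and the neuregulin gene Nrg1 also rose but lost the call without IR 4 or IR 5 (Btc) and in 6 of the 12 leave-one-out fits (Nrg1), without sham 1, 4 or 6 or IR 4, 5 or 6. The receptor Egfr, at a median of 37 FPKM in sham and 28.3 in IR, did not pass (-0.32 ± 0.26, adjusted p = 0.505).

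Of 14 HGF and FGF signalling genes, 0 rose and 1 fell. That gene was Fgf1, an acidic fibroblast growth factor, at 15, 23 and 40 FPKM in sham and 9.44, 13.1 and 17.4 in IR (log2 fold change -0.97 ± 0.24, adjusted p = 0.0171). The HGF receptor Met did not pass, with medians of 10.4 and 7.29 FPKM and a log2 fold change of -0.25 ± 0.29, adjusted p = 0.656. In the TNF family 3 of 21 genes rose. Tnfrsf12a, the receptor for the cytokine TWEAK (ENSMUSG00000023905, minus strand of GRCm39 chromosome 17 from 23894419 to 23896442), stood at 3.6, 4.79 and 6.77 FPKM in sham and 13.7, 42.8 and 84 in IR, a log2 fold change of 3.11 ± 0.46, adjusted p = 0.000839. Its lowest IR library was above every sham library. Tnfrsf1a, the main TNF receptor, was at 15.3, 23 and 30.3 FPKM in sham and 27.8, 44.7 and 67.1 in IR (log2 fold change 0.93 ± 0.22, adjusted p = 0.0136), with a small overlap. Traf3, a signalling adaptor, passed too but not without sham 1, 2, 3, 5 or 6 or IR 5 (log2 fold change 1.16, 0.70 without IR 5). In the IL-6 family 2 of 11 rose in edgeR, with 9 at an unadjusted p below 0.05. DESeq2 called 6 higher and 1 lower, and limma 3 higher. Jak2, a cytokine receptor kinase, was at 1.92, 2.87 and 3.27 FPKM in sham and 2.99, 5.37 and 8.64 in IR (log2 fold change 0.92 ± 0.22, adjusted p = 0.0142). The oncostatin M receptor Osmr did not overlap between groups but lost its call without sham 1, 3, 4 or 5 or IR 4 (log2 fold change 1.25 ± 0.34, adjusted p = 0.0278, at most 0.0725 without one of them). Socs3, the feedback inhibitor of this pathway, had medians of 17.2 and 45.0 FPKM and missed the threshold (log2 fold change 1.44 ± 0.47, adjusted p = 0.065).

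Of 29 genes of TGF-beta, activin and BMP signalling 10 rose and 0 fell, 34.5% against 5.52% of all genes, and 27 of the 29 fold changes were positive with a median of 0.65, beside 0.0032 for all genes. Inhbb, the activin beta B subunit, stood at 0.08, 0.365 and 1.11 FPKM in sham and 1.78, 5.61 and 10.7 in IR (log2 fold change 3.62 ± 0.72, adjusted p = 0.00536). Fst, follistatin, which binds and neutralises activins, was at 0.34, 0.595 and 1.79 FPKM in sham and 0.99, 2.94 and 6.73 in IR (log2 fold change 2.17 ± 0.50, adjusted p = 0.0126). Both the ligand subunit and its inhibitor were therefore higher, Inhbb without overlap and Fst with overlap between the highest sham and the lowest IR libraries. Smad7, the inhibitory SMAD, was at 0.88, 1.51 and 1.87 FPKM in sham and 2.71, 3.23 and 5.44 in IR (log2 fold change 1.27 ± 0.23, adjusted p = 0.00346). The corepressor Tgif1 was at 3.57, 4.17 and 5.45 FPKM in sham and 6.71, 10.3 and 16.5 in IR (log2 fold change 1.17 ± 0.20, adjusted p = 0.00211). These pathway brakes both separated the groups. The BMP target Id1 was at 3.22, 5.64 and 11.2 FPKM in sham and 6.49, 21.9 and 77.1 in IR (log2 fold change 2.19 ± 0.48, adjusted p = 0.0101), and Id4 and Skil also rose, by 2.26 and 1.38 on the log2 scale. Id3, Gdf15 and Tgfb1 passed but not without certain libraries: Id3 fell from 1.95 to 1.10 without IR 6, Gdf15 from 3.01 to 1.84 without IR 6 (and lost the call without sham 4 or 5), and Tgfb1, at 0.92, was lost without sham 3, 4, 5 or 6 or IR 1, 4, 5 or 6. The hepatocyte activin subunit Inhbc had medians of 35.9 and 21.1 FPKM and did not pass (-0.89 ± 0.33, adjusted p = 0.102).

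Phosphatases and other inhibitors that end MAP kinase signalling rose in 6 of 17 cases (35.3% against 5.52% of all genes), with 0 lower in edgeR. Of the 6, 3 were called whichever library was left out. DESeq2 called 8 higher, limma 2 and the fit with the replicate block 4. The low-share libraries called 7 and the high-share libraries 1. Dusp5 (ENSMUSG00000034765, plus strand of GRCm39 chromosome 19 from 53517540 to 53530862), which acts on nuclear ERK, stood at 0.33, 0.46 and 1.02 FPKM in sham and 2.65, 11.1 and 28.5 in IR (log2 fold change 4.41 ± 0.62, adjusted p = 0.000637). Dusp4 was at 0.08, 0.155 and 0.23 FPKM in sham and 0.49, 2.81 and 12 in IR (log2 fold change 4.55 ± 0.70, adjusted p = 0.00112), and Dusp10, which acts on p38 and JNK, at 0.81, 1.19 and 1.71 FPKM in sham and 2.19, 4.15 and 13.7 in IR (log2 fold change 2.34 ± 0.40, adjusted p = 0.00221). In these 3 genes no IR library reached down to a sham value. Dusp6, Dusp8 and Dusp14 also passed, with 1 library deciding each in part: Dusp6 was 1.68 and fell to 1.06 without IR 6, Dusp8 was 2.88 and fell to 1.47 without IR 6 (it was also lost without sham 2, 4, 5 or 6 or IR 4), and Dusp14, at 2.93, was lost without IR 4. Dusp1 had medians of 7.41 and 26.2 FPKM and missed the threshold (log2 fold change 2.07 ± 0.69, adjusted p = 0.0703).

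Of 20 p53 targets and growth arrest genes 8 rose in edgeR (40.0% against 5.52% of all genes), 5 of them whichever library was left out. DESeq2 called 9, limma 5, or 1 without its filter, and the fit with the replicate block 2. The low-share libraries called 7 and the high-share libraries 1. In edgeR 0 of 24 cell cycle genes rose, with a median of 0.06 (3 at an unadjusted p below 0.05, 0 in DESeq2 and in limma). Cdkn1a, the cyclin-dependent kinase inhibitor p21, stood at 0.50, 0.68 and 7.47 FPKM in sham and 4.25, 24.4 and 91.9 in IR (log2 fold change 3.91 ± 0.98, adjusted p = 0.02). Its highest sham value overlapped the lowest IR values. Gadd45b, a stress sensor, was at 2.2, 4.96 and 6.43 FPKM in sham and 7.77, 29.8 and 154 in IR (log2 fold change 3.32 ± 0.73, adjusted p = 0.0104), with no overlap. Gadd45a was at 3.22, 4.16 and 7.02 FPKM in sham and 6.67, 19.6 and 251 in IR (log2 fold change 3.83 ± 0.71, adjusted p = 0.00347), with a single IR library far above the rest: without IR 6 the log2 fold change was 2.47. Btg1, an antiproliferative factor, was at 3.14, 6.82 and 15.1 FPKM in sham and 10.4, 30.4 and 112 in IR (log2 fold change 2.39 ± 0.53, adjusted p = 0.0105). The kinase gene Plk2 rose by 2.32, and by 1.09 without IR 6. Btg2, at 4.28, was lost without IR 6 (1.73), and Aen and Zmat3, at 0.86 and 0.89, were lost without several libraries, sham 1, 5 or 6 or IR 4 or 5 for Aen, and these and sham 2 for Zmat3.

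In the BCL2 family 3 of 13 genes rose, with a list median of 0.22. Mcl1, a survival protein with rapid turnover, was at 22, 28.8 and 40.2 FPKM in sham and 33, 103 and 215 in IR (log2 fold change 1.82 ± 0.38, adjusted p = 0.00749). Bcl2l1, the survival protein BCL-XL, and Bcl2l11, the pro-apoptotic BIM, also passed, at 1.6 and 1.38, but 8 and 7 of the 12 leave-one-out fits lost them, without sham 2 to 6 or IR 4 to 6 for Bcl2l1 and without sham 1, 2, 5 or 6 or IR 4 to 6 for Bcl2l11 (0.88 without IR 6). The executioner gene Bak1 (0.33 ± 0.26, adjusted p = 0.478) did not pass. Among 12 ferroptosis and necroptosis genes 2 rose. Sat1, which acetylates polyamines, was at 35.1, 39.6 and 41 FPKM in sham and 53, 166 and 384 in IR (log2 fold change 2.15 ± 0.39, adjusted p = 0.00329), and sham libraries spanned a narrow range below every IR library. Mlkl, the effector of necroptosis, passed at 1.23 but not without sham 1 or 3 or IR 5. The lipid peroxide reductase Gpx4 had medians of 96.2 and 109 FPKM (log2 fold change 0.14 ± 0.24, adjusted p = 0.764).

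**Figure D2:**
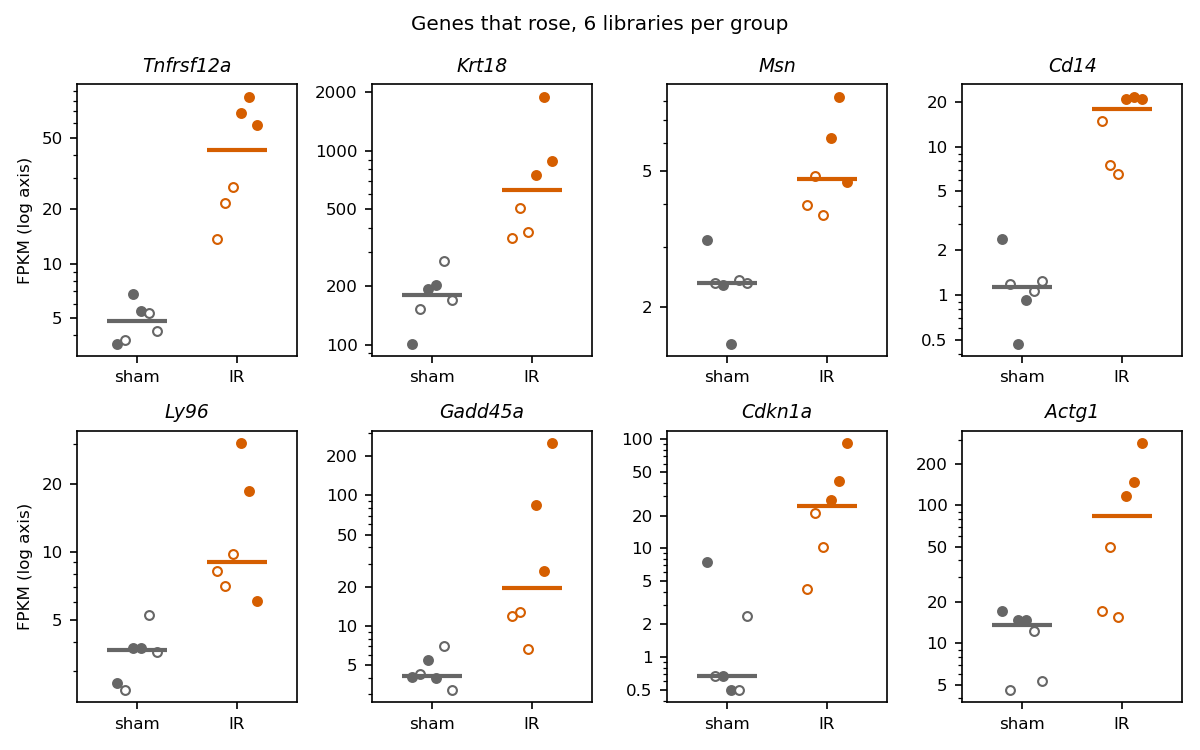
Deposited FPKM on a log axis for 8 genes that rose, 1 point per library, sham in grey and IR in orange, horizontal bars at the group medians, filled points for libraries with a mitochondrial share under 15%. Tnfrsf12a, Krt18, Msn, Cd14 and Ly96 separate the groups without overlap, and Gadd45a, Cdkn1a and Actg1 overlap at their extremes.

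Of 30 actin cytoskeleton genes 11 rose (36.7% against 5.52% of all genes) and 0 fell. Of the fold changes 25 were positive, with a median of 0.64. Msn, moesin, which links actin to the membrane (ENSMUSG00000031207, plus strand of GRCm39 chromosome X from 95139648 to 95212158), was at 1.57, 2.35 and 3.14 FPKM in sham and 3.72, 4.73 and 8.2 in IR (log2 fold change 1.06 ± 0.18, adjusted p = 0.00243). Tpm1, a tropomyosin, was at 3.42, 4.11 and 4.83 FPKM in sham and 5.59, 6.88 and 13.2 in IR (log2 fold change 0.84 ± 0.17, adjusted p = 0.00527). Both separated the groups by modest folds and small spreads. Actg1, cytoplasmic gamma actin, stood at 4.57, 13.5 and 17.3 FPKM in sham and 15.5, 83.5 and 282 in IR (log2 fold change 3.15 ± 0.59, adjusted p = 0.00347), with IR libraries spread over more than an order of magnitude. Tpm4, Lmna, Myh9 and Tagln2 rose by 1.40, 1.08, 0.90 and 0.97. The beta actin gene Actb passed at 0.93 but was lost without any of sham 2, 3, 4 or 6 or IR 4, 5 or 6, Ezr without IR 4 or 5, Tpm3 without IR 5 and Vcl without sham 5 or 6 or IR 5 or 6 (1.99, and 1.22 without IR 6). Median fold changes of the list were 0.70 in low-share and 0.38 in high-share libraries.

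Among 12 tubulins 2 rose, Tubb6 at 2.34, 3.19 and 3.91 FPKM in sham and 6.17, 15.3 and 43.7 in IR (log2 fold change 2.47 ± 0.35, adjusted p = 0.000722) and Tubb2a at 8.42, 15.7 and 23.5 FPKM in sham and 23.4, 72.1 and 277 in IR (log2 fold change 2.79 ± 0.51, adjusted p = 0.00319). Tubb6 did not overlap between the groups, and Tubb2a nearly did not. Tubb4b did not pass (0.88 ± 0.32, adjusted p = 0.0989), nor did Tuba1c (0.78 ± 0.35, adjusted p = 0.18). Of 21 keratin and junction genes 4 rose. Krt18, the keratin that pairs with keratin 8 in hepatocytes (ENSMUSG00000023043, plus strand of GRCm39 chromosome 15 from 101936615 to 101940462), was at 101, 181 and 270.3 FPKM in sham and 354, 625 and 1895 in IR (log2 fold change 2.0 ± 0.34, adjusted p = 0.00211). Its partner Krt8 was at 34.1, 99.5 and 126 FPKM in sham and 117, 403 and 1929 in IR (log2 fold change 2.97 ± 0.55, adjusted p = 0.00346). Krt18 separated the groups and Krt8 overlapped slightly. The cadherin Cdh1 passed at 1.16 but was lost without sham 2, 5 or 6 or IR 4 or 5. The gap junction gene Gjb2 had medians of 115 and 184 FPKM and did not pass (0.52 ± 0.35, adjusted p = 0.384). None of 14 YAP and TEAD target genes passed in edgeR or limma (2 at an unadjusted p below 0.05, 1 in DESeq2), with a median log2 fold change of 0.17. Yap1 itself was at 0.37 ± 0.14, adjusted p = 0.117.

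Of 22 genes for matrix-cutting enzymes and their inhibitors 10 rose (45.5% against 5.52% of all genes) and 0 fell in edgeR. The median log2 fold change was 1.42. DESeq2 called 12 and limma 3. Mmp3, stromelysin (ENSMUSG00000043613, plus strand of GRCm39 chromosome 9 from 7445822 to 7455975), was at 0, 0.02 and 0.12 FPKM in sham and 0.53, 0.845 and 3.21 in IR (log2 fold change 4.88 ± 0.75, adjusted p = 0.00112). Mmp8, the neutrophil collagenase, was at 0, 0.075 and 0.49 FPKM in sham and 1.03, 1.91 and 8.41 in IR (log2 fold change 4.39 ± 0.81, adjusted p = 0.00346). Adamts1, which cleaves proteoglycans, was at 1.62, 2.0 and 2.42 FPKM in sham and 2.8, 9.77 and 31.4 in IR (log2 fold change 2.57 ± 0.48, adjusted p = 0.0036). In each of these 3 genes the lowest IR library exceeded the highest sham library, though at sham levels near the detection floor for Mmp3 and Mmp8. For Mmp3 this separation was a condition of its choice among the largest rises. Timp1, the secreted inhibitor of these enzymes, was at 0.26, 0.385 and 1.29 FPKM in sham and 1.87, 4.07 and 7.51 in IR (log2 fold change 3.04 ± 0.71, adjusted p = 0.0137), again without overlap. Mmp13, Adamts4 and Adam8 rose by 5.12, 4.28 and 2.21 from low sham medians of 0.085, 0.025 and 0.305 FPKM. Mmp12 (3.15) was lost without IR 4, Mmp9 (1.88) without sham 1 to 5 or IR 1, 4 or 5, and Mmp14 (0.71) without sham 1, 2, 3, 5 or 6 or IR 1, 2, 4 or 5. The membrane sheddase Adam17 (0.12 ± 0.14, adjusted p = 0.656) did not pass. Neutrophil markers moved with this list (summed FPKM at most 25.6 in sham and at least 59.7 in IR), and their part in the result was not tested.

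The basement membrane collagen genes Col4a1 and Col4a2 rose, and the fibrillar collagen genes did not pass. A difference between these classes was not tested. Of 23 collagen and stellate cell genes 5 rose, with a list median of -0.09. Col4a1, a chain of basement membrane collagen, was at 1.54, 2.18 and 2.95 FPKM in sham and 3.43, 5.96 and 14.2 in IR (log2 fold change 1.48 ± 0.33, adjusted p = 0.0109), and Pdgfrb, the stellate cell receptor for PDGF, at 0.57, 0.79 and 0.99 FPKM in sham and 1.14, 1.75 and 2.6 in IR (log2 fold change 1.07 ± 0.20, adjusted p = 0.00347). Both were above sham in every IR library. Col4a2 (0.98) was lost without IR 5, the crosslinking enzyme Lox (2.14) without sham 3, 4 or 5 or IR 5, and Loxl2 (1.10) in 11 of 12 leave-one-out fits, all but that without IR 2. Fibronectin, Fn1, had medians of 76.1 and 93.8 FPKM (log2 fold change 0.25 ± 0.25, adjusted p = 0.596).

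Of 28 genes of sinusoidal endothelium and adhesion 6 rose. Angpt2, the destabilising angiopoietin, was at 0.02, 0.105 and 0.18 FPKM in sham and 0.22, 0.645 and 4.88 in IR (log2 fold change 3.57 ± 0.61, adjusted p = 0.00216), with no overlap. Cdh5, the endothelial cadherin, was at 0.99, 1.78 and 2.67 FPKM in sham and 2.55, 4.3 and 9.24 in IR (log2 fold change 1.52 ± 0.30, adjusted p = 0.00534). Lyve1, a hyaluronan receptor of sinusoids, was at 0.44, 1.11 and 3.98 FPKM in sham and 2.93, 9.21 and 22.5 in IR (log2 fold change 2.46 ± 0.58, adjusted p = 0.0148), with overlap. Pecam1 (0.97) was lost without sham 5 or 6 or IR 4, the Wnt enhancer Rspo3 (1.77) without sham 5 or IR 4 or 5, and the leukocyte ligand Icam1 (0.89), although its groups did not overlap, in 11 of 12 leave-one-out fits, all but that without sham 2. The endothelial TGF-beta coreceptor Eng did not pass (0.19 ± 0.22, adjusted p = 0.65).

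Of 28 coagulation and fibrinolysis genes 2 rose (7.14% against 5.52% of all genes) and 1 fell (3.57% against 2.36%). As a list these genes were thus near the shares of all genes, with a median of -0.08. The 2 that rose encode anticoagulant receptors of the vessel wall. Procr, the protein C receptor (ENSMUSG00000027611, plus strand of GRCm39 chromosome 2 from 155593037 to 155597391), was at 0, 0.13 and 0.17 FPKM in sham and 1.09, 1.6 and 10.1 in IR (log2 fold change 4.82 ± 0.68, adjusted p = 0.000654). Thbd, thrombomodulin, which turns thrombin toward protein C, was at 0.04, 0.11 and 2.02 FPKM in sham and 1.08, 6.44 and 14.2 in IR (log2 fold change 3.79 ± 0.87, adjusted p = 0.0125). Procr did not overlap, a condition of its choice among the largest rises, and a single sham library put Thbd into the IR range. Klkb1, plasma prekallikrein of hepatocytes, was lower at -1.05 but lost the call without IR 2 or 5. The fibrinogen chains did not pass, with log2 fold changes of 0.34 ± 0.43, adjusted p = 0.684 for Fga, 0.64 ± 0.38, adjusted p = 0.32 for Fgb and 0.49 ± 0.41, adjusted p = 0.508 for Fgg.

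Mmp3 and Procr were among 15 genes with the largest rises. Their start regions are set out here because of the 7-letter pattern TGANTCA. Of the 14 of these genes with a window in RefSeq (GRCm38.p6, 300 bases around the start), 5 held it on either strand. The pattern includes TGACTCA and TGAGTCA, the letters bound by AP-1 factors and related to antioxidant elements. It also admits TGAATCA, the only match in Hilpda, and TGATTCA, the only match in Lrit1 among the largest falls. The pattern was in 8.97% of 27025 genes with a window, and in 2 of 10 windows of the genes with the largest falls. The 8-letter pattern TGACGTCA, which does not overlap with TGANTCA, was in 1 of the 14, Ch25h, and in 2.03% of all genes. The windows follow 5′ to 3′ on the gene's strand, with the matched letters in capitals, for Mmp3 (chr9:7445572-7445871, plus strand), Procr (chr2:155750967-155751266, plus strand) and Ch25h, which encodes cholesterol 25-hydroxylase (chr19:34475099-34475398, minus strand). A match is a description of the letters and not a mapped site.
Mmp3: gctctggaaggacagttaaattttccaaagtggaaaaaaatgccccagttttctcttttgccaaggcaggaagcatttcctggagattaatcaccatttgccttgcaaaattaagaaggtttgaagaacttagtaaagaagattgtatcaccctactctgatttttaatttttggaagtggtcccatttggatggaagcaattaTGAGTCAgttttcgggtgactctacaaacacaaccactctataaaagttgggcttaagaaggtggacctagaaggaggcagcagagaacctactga
Procr: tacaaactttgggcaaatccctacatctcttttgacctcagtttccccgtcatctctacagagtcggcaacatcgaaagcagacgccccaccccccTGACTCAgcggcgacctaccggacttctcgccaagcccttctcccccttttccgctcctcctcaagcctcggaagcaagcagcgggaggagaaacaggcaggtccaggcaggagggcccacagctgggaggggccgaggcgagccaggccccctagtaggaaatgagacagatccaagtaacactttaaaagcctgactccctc
Ch25h: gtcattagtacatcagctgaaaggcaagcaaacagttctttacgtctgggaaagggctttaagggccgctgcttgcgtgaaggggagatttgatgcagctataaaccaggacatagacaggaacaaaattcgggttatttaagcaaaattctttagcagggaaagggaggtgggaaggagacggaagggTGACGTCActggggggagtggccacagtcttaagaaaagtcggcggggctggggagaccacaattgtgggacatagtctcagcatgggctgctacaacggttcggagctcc

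Toll-like receptors and their partners sense microbial products and cell debris. Of 26 Toll-like receptor and danger sensing genes 7 rose (26.9% against 5.52% of all genes) and 0 fell in edgeR. Of the 7, 6 were called whichever library was left out. DESeq2 called 8 higher and 1 lower, and limma 2 higher. Cd14, the lipopolysaccharide coreceptor, was at 0.47, 1.12 and 2.4 FPKM in sham and 6.53, 18 and 21.8 in IR (log2 fold change 3.6 ± 0.55, adjusted p = 0.00112). Ly96, the partner of the receptor TLR4, was at 2.46, 3.69 and 5.25 FPKM in sham and 6.06, 9.02 and 30.1 in IR (log2 fold change 1.78 ± 0.33, adjusted p = 0.00346). Tlr2 was at 0.30, 0.41 and 0.64 FPKM in sham and 0.95, 1.47 and 2.03 in IR (log2 fold change 1.68 ± 0.38, adjusted p = 0.0109). These 3 components of lipid and lipopolysaccharide recognition did not overlap between the groups. Tlr13, a receptor for bacterial ribosomal RNA, rose by 2.19, and the myeloid receptors Trem1 and Clec4e rose by 4.89 and 3.55. The decoy kinase Irak3 (1.36) was lost without sham 1 or IR 4 or 5. The adaptor Myd88 (0.50 ± 0.21, adjusted p = 0.149) and the alarmin Hmgb1 (-0.15 ± 0.29, adjusted p = 0.792) did not pass. The neutrophil and monocyte markers given above were also higher in IR, and their part in the result was not tested.

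Other immune lists had few called genes in number, but not all had a low share. Of eicosanoid genes 12.5% rose, of purine and adenosine genes 8.70% and of interferon-stimulated genes 7.5%, against 5.52% of all genes. Of complement genes 3.45% did. Among the genes with the largest rises were Acod1, the itaconate synthase of activated macrophages, at 0, 0.07 and 0.13 FPKM in sham and 0.66, 1.32 and 3.37 in IR (log2 fold change 4.5 ± 0.74, adjusted p = 0.00191), and Ccr1, a chemokine receptor of myeloid cells, at 0.04, 0.16 and 0.25 FPKM in sham and 1.35, 3.09 and 5.47 in IR (log2 fold change 4.28 ± 0.63, adjusted p = 0.000824). Both were nearly undetected in sham. C5ar1, the receptor for the complement fragment C5a, was at 0.09, 0.215 and 1.0 FPKM in sham and 0.94, 1.58 and 3.18 in IR (log2 fold change 2.35 ± 0.50, adjusted p = 0.00809) and was the only 1 of 29 complement genes that passed, while the hepatocyte product C3 had a log2 fold change of 0.38 ± 0.26, adjusted p = 0.398. Of 16 eicosanoid genes 2 rose, Alox5ap, needed for leukotriene synthesis, at 0.46, 0.71 and 0.97 FPKM in sham and 1.04, 1.78 and 5.08 in IR (log2 fold change 1.7 ± 0.36, adjusted p = 0.0086), and Alox12 (2.23), lost without sham 1 to 4 or IR 4 to 6. Interferon-stimulated genes as a list stayed near 0, with a median of -0.02 and 3 of 40 risen: Oasl1 at 1.59, and Oas3 (1.87) and Rsad2 (1.82), which were lost without sham 1, 3 or 4 or IR 4 or 5 (Oas3) and sham 1, 2, 3, 5 or 6 or IR 4 to 6 (Rsad2). None of 21 MHC and antigen presentation genes passed, with a median of -0.09, and none in DESeq2 or limma (2 at an unadjusted p below 0.05). Purine enzymes Ada (1.32) and Pnp (1.37) rose among 23 purine and adenosine genes, and both were lost without several libraries, sham 3 to 6 (Ada), sham 2, 5 or 6 (Pnp), or IR 4 to 6.

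Genes for the assembly of ribosomes and for their proteins were mostly positive in fold change. Of 42 ribosome biogenesis genes 12 rose (28.6% against 5.52% of all genes), 41 had a positive fold change and the median was 0.51. Heatr1, which supports transcription of ribosomal RNA, was at 2.09, 2.81 and 3.21 FPKM in sham and 3.38, 6.28 and 12.3 in IR (log2 fold change 1.33 ± 0.28, adjusted p = 0.00818). Nop58, a core protein of box C/D small nucleolar particles, was at 1.8, 3.38 and 4.08 FPKM in sham and 4.4, 6.8 and 11.5 in IR (log2 fold change 1.12 ± 0.25, adjusted p = 0.0108). Both were above all sham libraries. Tsr1 rose by 1.12, and these 3 genes alone of the 12 were called whichever library was left out. The other 9 (Rrp12, Rrp9, Rrs1, Wdr43, Nip7, Gar1, Gnl2, Gnl3 and Nop14), between 0.74 and 1.30, were each lost without IR 4 or IR 5 and 8 of them also without 1 or more sham libraries. The list's median was 0.94 in the low-share libraries, with 18 called, and 0.23 in the high-share libraries, with 0 called; limma called 7. Of 77 cytosolic ribosomal proteins 74 had a positive fold change, with a median of 0.24, but 0 passed in edgeR or limma (6 at an unadjusted p below 0.05, 1 in DESeq2). Of 31 proteasome genes 29 were positive with a median of 0.32, and 0 passed in edgeR or limma (5 at an unadjusted p below 0.05, 2 in DESeq2).

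Amino acid supply showed changes in both directions. Of 34 genes for tRNA synthetases, serine synthesis and amino acid uptake 6 rose and 1 fell. Psat1, a serine synthesis enzyme of the cytosol, was at 0.12, 0.21 and 1.04 FPKM in sham and 0.49, 1.34 and 9.89 in IR (log2 fold change 3.07 ± 0.64, adjusted p = 0.00701). The transporter pair Slc3a2 and Slc7a5, which import large neutral amino acids together, were at 5.98, 7.37 and 8.51 FPKM in sham and 8.51, 13.2 and 31.1 in IR (Slc3a2, log2 fold change 0.95 ± 0.21, adjusted p = 0.0109) and 0.17, 0.435 and 0.53 FPKM in sham and 0.51, 1.75 and 3.29 in IR (Slc7a5, log2 fold change 2.05 ± 0.48, adjusted p = 0.0136). Shmt2, the mitochondrial enzyme that turns serine into glycine, was at 47.9, 58.2 and 88.4 FPKM in sham and 23.6, 27.1 and 43.9 in IR (log2 fold change -1.01 ± 0.23, adjusted p = 0.0131). Shmt2 separated the groups downward, and the 3 risen genes overlapped or touched. The arginine transporter Slc7a1 (2.51) was lost without IR 6, Rars (0.64) without sham 1, 2, 5 or 6 or IR 4 or 5, and Sars (0.56) in 10 of 12 leave-one-out fits, all but those without sham 3 and IR 1. In autophagy and lysosome genes 1 of 30 rose, the cargo receptor Sqstm1 at 48.9, 95.2 and 156 FPKM in sham and 91.7, 296 and 1089 in IR (log2 fold change 1.9 ± 0.43, adjusted p = 0.0118). The protease Ctsl had medians of 72.1 and 168 FPKM and missed the threshold (1.35 ± 0.47, adjusted p = 0.0818).

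Of 21 circadian clock genes 6 fell (28.6% against 2.36% of all genes) and 2 rose in edgeR, with 3 of the 6 called whichever library was left out. DESeq2 and limma also called 6 lower, and the high-share libraries 0. The clock is a feedback loop in which BMAL1 and CLOCK drive their own repressors and a set of output transcription factors through E-boxes. Usp2, an output deubiquitinase (ENSMUSG00000032010, plus strand of GRCm39 chromosome 9 from 43978318 to 44006924), was at 6.1, 7.62 and 13.4 FPKM in sham and 0.95, 1.66 and 5.14 in IR (log2 fold change -1.85 ± 0.43, adjusted p = 0.0132). The PAR bZIP output factor Hlf was at 4.12, 6.63 and 10.9 FPKM in sham and 2.97, 3.72 and 4.55 in IR (log2 fold change -1.01 ± 0.23, adjusted p = 0.0134). Usp2 separated the groups, and Hlf overlapped slightly. The related factors Dbp and Tef also separated them, Dbp at 13.4, 21.7 and 39.4 FPKM in sham and 4.41, 6.42 and 12.7 in IR (log2 fold change -1.61 ± 0.45, adjusted p = 0.0338) and Tef at 24.8, 30.2 and 44.5 FPKM in sham and 6.16, 14.7 and 23.8 in IR (log2 fold change -1.11 ± 0.29, adjusted p = 0.0245), but their calls were lost without sham 3, 4 or 5 or IR 2, 4, 5 or 6 (Dbp) and IR 4 or 5 (Tef). Per3 (-2.14) was lost without sham 2, 4 or 5 or IR 2, 4, 5 or 6.

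In the other direction, Arntl, the older symbol of Bmal1, was at 0.14, 0.235 and 0.43 FPKM in sham and 0.28, 0.73 and 3.0 in IR (log2 fold change 2.02 ± 0.52, adjusted p = 0.0219) and lost the call without IR 6. Nfil3, the repressor that competes with the PAR bZIP factors, was at 8.19, 9.65 and 14.3 FPKM in sham and 11.6, 22.7 and 109 in IR (log2 fold change 1.69 ± 0.49, adjusted p = 0.0385), and was lost without each single sham library and without IR 4 or IR 6 (0.78 without IR 6). Nr1d1 had medians of 10.4 and 15.2 FPKM, with 112 in the highest IR library, and missed the threshold (1.58 ± 0.49, adjusted p = 0.0545). Per1 did not pass (0.29 ± 0.31, adjusted p = 0.62), nor did Nr1d2 (-0.37 ± 0.23, adjusted p = 0.347). The time of day at collection is not given, so a difference in collection time between groups cannot be told apart from the operation. Of 18 list members with a RefSeq window, 5 held the palindromic E-box CACGTG (Per1, Cry1, Tef, Ciart and Bhlhe41), against 8.09% of all genes. Tef is the only one of the 5 that was called, and its first window (chr15:81802423-81802722, plus strand) is shown with the E-box in capitals to set it beside the fall.
Tef: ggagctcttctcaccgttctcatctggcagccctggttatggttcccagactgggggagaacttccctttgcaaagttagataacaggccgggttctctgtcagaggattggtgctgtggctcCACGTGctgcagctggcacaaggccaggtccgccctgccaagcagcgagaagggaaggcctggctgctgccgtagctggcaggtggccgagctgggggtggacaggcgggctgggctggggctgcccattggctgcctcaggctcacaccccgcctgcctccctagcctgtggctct

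**Figure D3:**
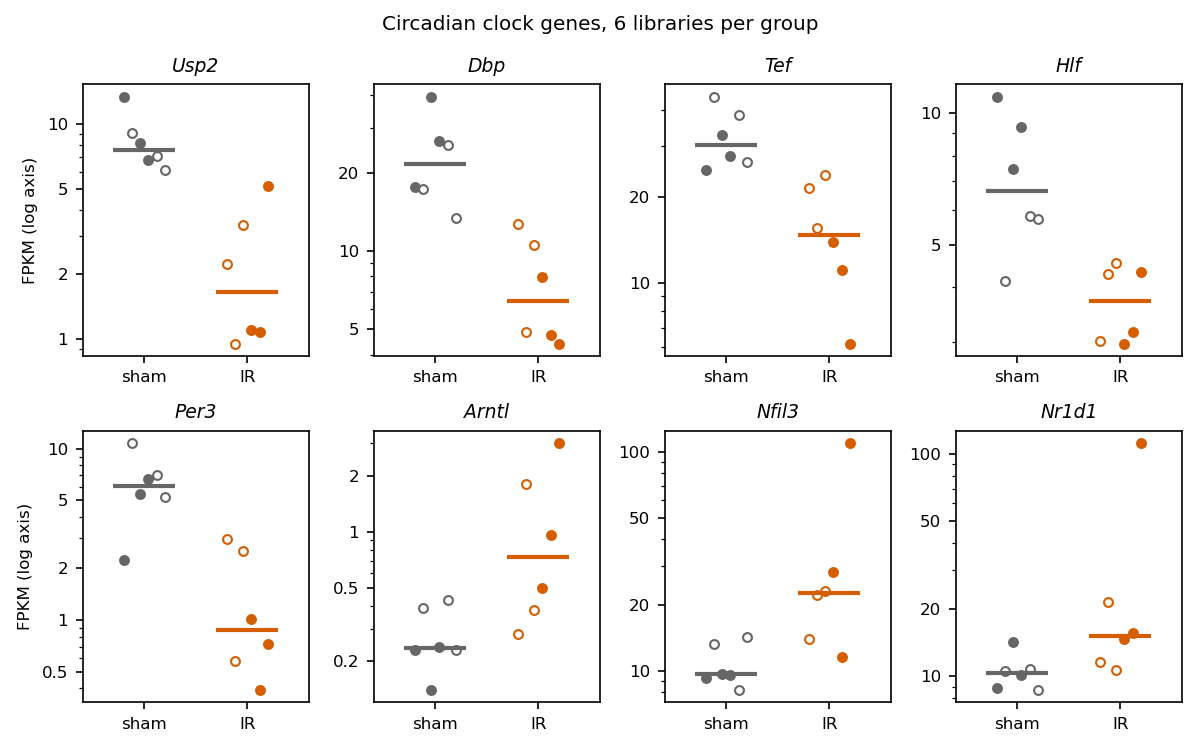
Deposited FPKM on a log axis for 8 circadian clock genes, 1 point per library, sham in grey and IR in orange, bars at the group medians, filled points for libraries with a mitochondrial share under 15%. Usp2, Dbp and Tef lie below sham in all 6 IR libraries, Hlf and Per3 are lower with overlap, Arntl and Nfil3 are higher with overlap, and Nr1d1 missed the threshold.

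The liver is the main source of circulating IGF1. Of 20 genes of the IGF, growth hormone and insulin axis 4 fell and 0 rose, 2 of the 4 whichever library was left out, while 9 fold changes were positive and the list's median was -0.08. Igfals, the acid-labile subunit that keeps IGF1 in the blood (ENSMUSG00000046070, plus strand of GRCm39 chromosome 17 from 25084971 to 25100984), was at 8.89, 13.5 and 20.1 FPKM in sham and 3.42, 4.4 and 4.95 in IR (log2 fold change -1.73 ± 0.42, adjusted p = 0.0171). Igf1 itself was at 74.3, 83.3 and 96.6 FPKM in sham and 29.6, 49.4 and 70.8 in IR (log2 fold change -0.84 ± 0.23, adjusted p = 0.0326). Neither overlapped between the groups, but the Igf1 call was lost without sham 4, 5 or 6 or IR 4, 5 or 6, at an adjusted p of up to 0.0764. Igfbp5, an IGF-binding protein, fell by 3.85. Prlr, the prolactin receptor, passed at -1.23 and was lost without sham 3 or 4 or IR 5 or 6. The growth hormone receptor Ghr had medians of 34.5 and 19.2 FPKM and missed the threshold (-0.99 ± 0.31, adjusted p = 0.0575), and Igfbp1, which insulin represses, ranged widely in both groups (1.11 ± 0.82, adjusted p = 0.443). Among 15 male-biased genes that depend on growth hormone, 1 fell, Hsd3b2, a steroid dehydrogenase.

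Of 24 gluconeogenesis and glycogen genes 5 fell (20.8% against 2.36% of all genes) and 0 rose, and not all 5 are named here. Slc2a2, the hepatocyte glucose transporter GLUT2 (ENSMUSG00000027690, plus strand of GRCm39 chromosome 3 from 28752052 to 28785508), was at 26, 29.8 and 63.9 FPKM in sham and 9.99, 15.2 and 20.5 in IR (log2 fold change -1.33 ± 0.29, adjusted p = 0.0104), with every IR library below every sham library. Pygl, glycogen phosphorylase, was at 14.2, 30 and 44 FPKM in sham and 12.2, 16.9 and 21.4 in IR (log2 fold change -0.88 ± 0.25, adjusted p = 0.0389), with overlap. The subunits Phka2 (-1.01) and Phkb (-0.55) of its activating kinase also fell. These 3 calls were lost without certain libraries, sham 1 or 4 or IR 2, 4 or 5 (Pygl), IR 5 (Phka2) and IR 4 or 5 (Phkb). Ppp1r3b, which targets a phosphatase to glycogen, is not in the list and was chosen among the largest falls without overlap. It was at 21.7, 29.7 and 52.5 FPKM in sham and 2.29, 7.28 and 11.9 in IR (log2 fold change -2.3 ± 0.39, adjusted p = 0.00211). The synthase Gys2 had medians of 77.7 and 46.8 FPKM and missed the threshold (-0.85 ± 0.27, adjusted p = 0.0583). The rate-limiting gluconeogenic enzymes did not pass, Pck1 at -0.55 ± 0.36, adjusted p = 0.378 and G6pc at -0.32 ± 0.55, adjusted p = 0.773. The list's median was -0.51 in low-share and -0.16 in high-share libraries.

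**Figure D4:**
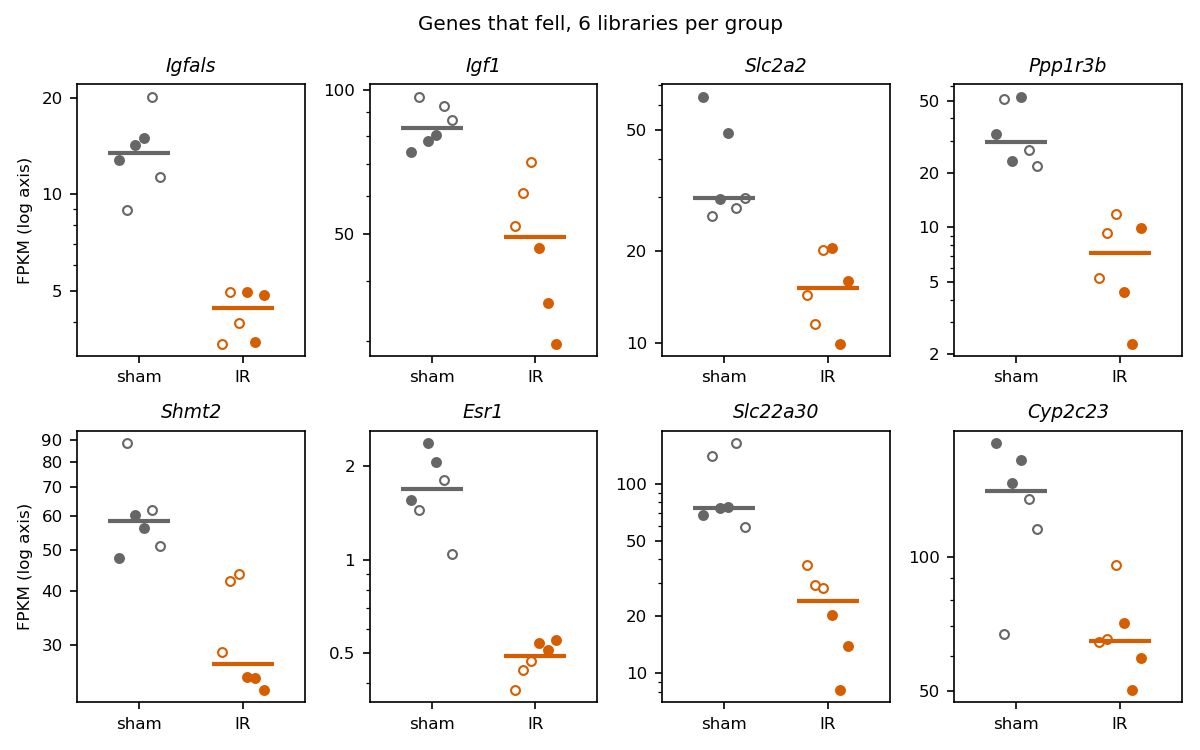
Deposited FPKM on a log axis for 8 metabolic and endocrine genes that fell, 1 point per library, sham in grey and IR in orange, bars at the group medians, filled points for libraries with a mitochondrial share under 15%. Igfals, Igf1, Slc2a2, Ppp1r3b, Shmt2, Esr1 and Slc22a30 lie below sham in all 6 IR libraries, and Cyp2c23 overlaps.

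Large metabolic lists leaned downward with few genes past the threshold. Of 59 cytochrome P450 genes 3 fell, 10 had a positive fold change and the median was -0.44; DESeq2 called 7 lower, limma 3, the fit with the replicate block 2, the low-share libraries 8 (median -0.59) and the high-share libraries 1 (median -0.24). Cyp2c23, an epoxygenase, was at 67, 141 and 181 FPKM in sham and 50.2, 64.8 and 95.9 in IR (log2 fold change -1.04 ± 0.26, adjusted p = 0.0179). Cyp4f15, a fatty acid hydroxylase, was at 61, 86.1 and 117 FPKM in sham and 24.9, 46.5 and 62.7 in IR (log2 fold change -1.01 ± 0.25, adjusted p = 0.0176). Both were lower with overlap at the edges. Cyp2a22 (-2.33) was lost without sham 5 or IR 2 to 6, at an adjusted p of up to 0.141, and was -1.45 without IR 4. Of 47 phase II conjugation genes only 4 had a positive fold change, and the median was -0.54, yet 0 fell and 2 rose; 6 fell in DESeq2, 1 in limma, 9 in the low-share libraries (median -0.90) and 0 in the high-share libraries (median -0.01). Sult1e1, the estrogen sulfotransferase, was at 0.06, 0.55 and 0.97 FPKM in sham and 0.51, 7.24 and 60.1 in IR (log2 fold change 4.64 ± 0.96, adjusted p = 0.00707). Its IR libraries were spread more widely than those of any other gene of the list named here. Ugt2b37 (2.35) was lost without sham 1, 3, 4, 5 or 6 or IR 4, and was 1.20 without IR 4.

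Of 49 urea cycle and amino acid catabolism genes 7 had a positive fold change, 3 fell and the median was -0.36, with -0.75 in low-share and -0.07 in high-share libraries. Ivd, of leucine breakdown, was at 28.9, 35.8 and 39.9 FPKM in sham and 14.9, 21.1 and 25.9 in IR (log2 fold change -0.77 ± 0.20, adjusted p = 0.0245), and Uroc1, of histidine breakdown, at 80.7, 103 and 131 FPKM in sham and 23.8, 59.2 and 70.6 in IR (log2 fold change -1.05 ± 0.31, adjusted p = 0.0413). Neither overlapped, though Ivd was lost without IR 4 or 5, Uroc1 without sham 2 to 5 or IR 2 to 5, and Afmid (-1.38), of tryptophan breakdown, without sham 3 to 5 or IR 2 to 5. The urea cycle enzymes Arg1 (-0.14 ± 0.31, adjusted p = 0.838) and Ass1 (-0.48 ± 0.41, adjusted p = 0.509) did not pass. Zonation markers did not pass in either direction in edgeR, but most fold changes were negative. Of 18 pericentral genes 2 were positive, median -0.36 (1 at an unadjusted p below 0.05, 0 in DESeq2 and in limma). Of 13 periportal genes 2 were positive, median -0.19 (2 at an unadjusted p below 0.05, 1 in DESeq2, 0 in limma). The low-share libraries called 1 gene of each list lower, with medians of -0.44 and -0.83. The high-share libraries called 0 of each, with medians of -0.0014 and 0.21. The pericentral Glul had medians of 241 and 217 FPKM (-0.22 ± 0.34, adjusted p = 0.741). None of 69 nuclear-encoded respiratory chain genes passed in edgeR or limma (6 at an unadjusted p below 0.05, 3 in DESeq2). Of these, 14 had a positive fold change, with a median of -0.16. None of 23 apolipoprotein genes passed in edgeR or limma (1 at an unadjusted p below 0.05, 1 in DESeq2). There 8 were positive, with a median of -0.19.

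Most transcription factors that define hepatocytes did not pass, as was so for most genes tested. Of 34 nuclear receptors and hepatocyte factors 2 rose (5.88% against 5.52% of all genes) and 2 fell (5.88% against 2.36%) in edgeR. DESeq2 called 2 higher and 5 lower, and limma 2 higher and 2 lower. Esr1, the estrogen receptor alpha (ENSMUSG00000019768, plus strand of GRCm39 chromosome 10 from 4561593 to 4955614), was at 1.04, 1.69 and 2.37 FPKM in sham and 0.38, 0.49 and 0.55 in IR (log2 fold change -1.88 ± 0.29, adjusted p = 0.00122). It separated the groups, with the 6 IR libraries close together. Nr1h5, a relative of the bile acid receptor FXR, fell by 2.76. Gata6 (0.87) and Cebpd (1.42) rose but were lost in 8 and 7 leave-one-out fits, without sham 1 to 5 or IR 4 to 6 (Gata6) and sham 2 to 5 or IR 4 to 6 (Cebpd, 0.94 without IR 6). Hnf4a had medians of 81.4 and 93.9 FPKM (0.16 ± 0.19, adjusted p = 0.672) and Cebpb 60.9 and 95.7 (0.60 ± 0.35, adjusted p = 0.311). Neither of these central regulators passed.

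Among carriers and storage proteins, Slc22a30, a member of the organic anion transporter family, was at 59, 75.1 and 164 FPKM in sham and 8.16, 24.2 and 37.3 in IR (log2 fold change -2.08 ± 0.45, adjusted p = 0.0086), without overlap, and Lrit1, a leucine-rich repeat protein, was at 3.76, 4.33 and 9.32 FPKM in sham and 0.64, 1.19 and 2.69 in IR (log2 fold change -1.82 ± 0.42, adjusted p = 0.0125), also without overlap. The lack of overlap was a condition for choosing these genes among the largest falls. Of 21 hepatobiliary transporters 4 had a positive fold change and the median was -0.50, with -0.69 in low-share and -0.39 in high-share libraries. Of these 1 rose, Slc51b of the basolateral bile acid exporter (2.46), lost without IR 6, and 1 fell, the cation exporter Slc47a1 (-1.56), lost without sham 2 or 5 or IR 2, 4, 5 or 6. The canalicular Abcc2 did not pass (-0.57 ± 0.22, adjusted p = 0.127). Plin2, which coats lipid droplets, was at 35.5, 105 and 193 FPKM in sham and 101, 437 and 763 in IR (log2 fold change 1.99 ± 0.47, adjusted p = 0.0143) and was the only 1 of 30 fatty acid oxidation and PPARalpha genes that rose. Hilpda, which inhibits lipid droplet breakdown, was at 1.1, 1.81 and 3.2 FPKM in sham and 7.03, 26.4 and 115 in IR (log2 fold change 4.32 ± 0.69, adjusted p = 0.00144). Both droplet proteins were higher, Hilpda without overlap, a condition of its choice among the largest rises. The metallothioneins had large differences that missed the threshold: Mt2 was at 92, 231 and 891 FPKM in sham and 1056, 1274 and 2379 in IR (log2 fold change 1.93 ± 0.67, adjusted p = 0.0833), without overlap, and Mt1 at 128, 391 and 1230 FPKM in sham and 701, 1787 and 2711 in IR (log2 fold change 1.7 ± 0.63, adjusted p = 0.102). Of 12 metallothionein and zinc genes 0 passed in edgeR or limma (4 at an unadjusted p below 0.05, 3 in DESeq2). All 10 with a RefSeq window held TGCNCNC on either strand, as did 53.6% of all genes. This pattern is looser than the metal response core, and some matches, such as TGCTCGC in Slc39a1, are not that core. None of 17 iron genes passed in edgeR or limma (3 at an unadjusted p below 0.05, 2 in DESeq2).

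**Figure D5:**
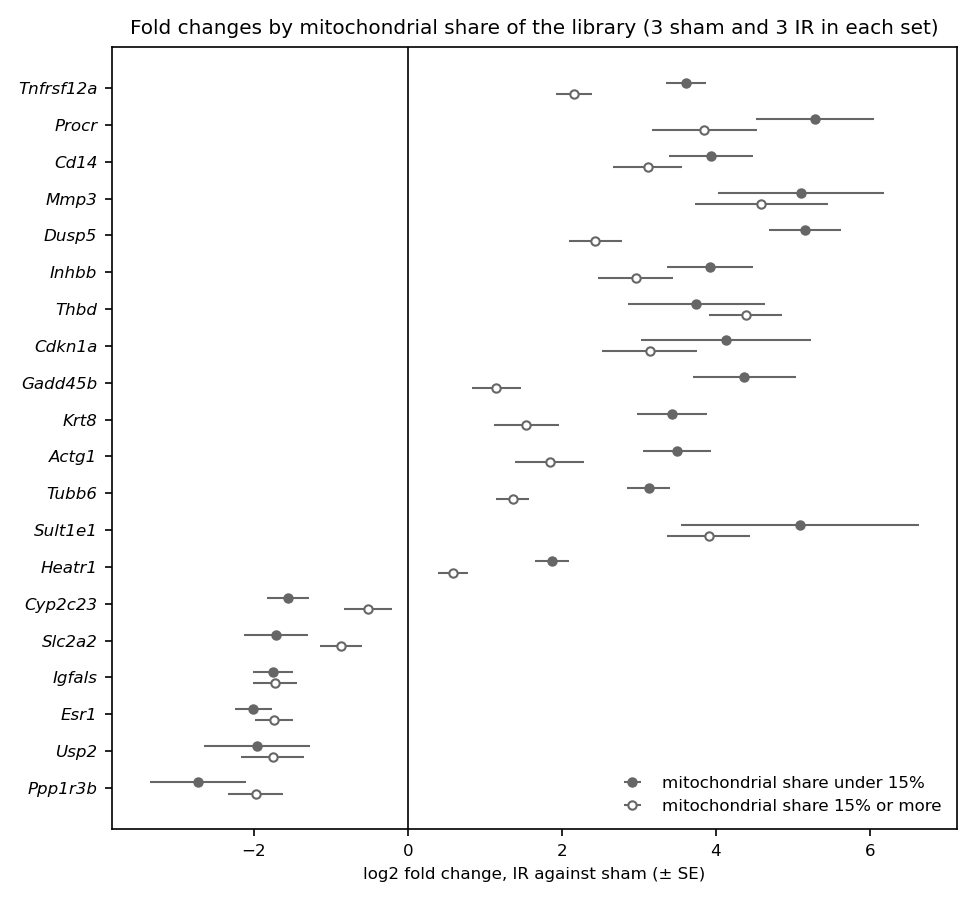
Log2 fold change of IR against sham with its standard error in the 6 libraries with a mitochondrial share under 15% (filled) and in the 6 at 15% or more (open), for 20 genes described in the text, edgeR. The sign is the same in both sets for 20 of 20, and the change is smaller in the high-share set for 19 of them. The genes were called with these same libraries, so the shared sign was largely fixed by that choice.

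Lists of RNA decay regulators (20 genes) and splicing factors (28 genes) held 0 called genes in edgeR or limma, with medians of 0.17 and -0.02. At an unadjusted p below 0.05 they held 8 and 6 genes, and in DESeq2 1 each. The decay factor Zfp36 had medians of 30.2 and 48.6 FPKM and did not pass (1.39 ± 0.52, adjusted p = 0.109). Of 18 noncoding host transcripts 1 rose, Snhg5 (1.00), lost in 11 of 12 leave-one-out fits, all but that without IR 1, and the snoRNA host Gas5 did not pass (0.44 ± 0.26, adjusted p = 0.335). Among genes annotated as noncoding, the smallest p-values went to 3 that fell and 2 that rose. Gm49012 (ENSMUSG00000115509, plus strand of GRCm39 chromosome 14 from 34313049 to 34327657) was at 0.53, 2.42 and 4.9 FPKM in sham and 0.04, 0.20 and 0.59 in IR (log2 fold change -3.29 ± 0.61, adjusted p = 0.00346), and Gm45051 (ENSMUSG00000108435, minus strand of GRCm39 chromosome 6 from 72324012 to 72325441) at 1.67, 3.94 and 7.28 FPKM in sham and 0.57, 0.71 and 1.52 in IR (log2 fold change -2.44 ± 0.52, adjusted p = 0.00849). 1810064F22Rik fell by 2.98 on the log2 scale, without overlap. F630028O10Rik and 2410006H16Rik rose by 1.71 and 1.78, both with overlap. The sources used here do not say whether counting used the strand, so reads of overlapping genes on the other strand cannot be told apart.

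The other genes of the largest changes are named for completeness. On the rising side they were Sprr1a, Tnfaip6, Chil3, Il1r2, Efr3b and F13a1, with log2 fold changes between 4.19 (F13a1) and 6.86 (Sprr1a). Efr3b, a plasma membrane scaffold for lipid kinase, was at 0.03, 0.075 and 0.09 FPKM in sham and 0.13, 0.425 and 4.3 in IR (log2 fold change 4.22 ± 0.75, adjusted p = 0.00272), with 1 library far above the others. On the falling side they were Sema5b, Keg1, Cyp7a1, Nrep, Dclk3 and Adra1b, between -4.44 (Sema5b) and -2.10 (Adra1b). Sema5b was lost without IR 4 or 5, Nrep without sham 2, 3 or 5 or IR 2 to 6, and Dclk3 without sham 2 to 5 or IR 2 to 5.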

How the data were processed

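Total RNA of sham and IR liver was sequenced, in 6 libraries each. The submitters' processing notes name cutadapt 1.9.1, HISAT2 2.2.1, DESeq2 and the build GRCm39, with no roles; the sources used here give neither the counting tool nor its annotation. The deposited table gives a whole-number count per Ensembl gene and library. It also gives FPKM made by the authors from those counts, gene size and the library total, mitochondrial genes included, which returned 100% of the deposited FPKM within 0.0051. Biotypes came from GENCODE M21 by gene identifier (52073 of 56691 found), and promoter windows from RefSeq, on the older build GRCm38.p6.

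Counts were tested in R 4.3.3 with edgeR 4.0.16: filterByExpr with the groups (minimum count 10, total 15; 14595 of 56691 genes), trimmed mean of M-values, 1 quasi-likelihood model of all 18 libraries (15 residual degrees of freedom, biological coefficient of variation 0.398), a two-sided test of IR against sham and Benjamini-Hochberg adjustment over all genes tested, with a threshold of 0.05. The ± of a log2 fold change is its standard error. Levels are deposited FPKM, and groups overlap or not by them. Library totals set the counting precision, which was not compared with the spread between libraries and is coarse near 0 FPKM. The higher group mean was below 1 FPKM for 139 of the 806 genes that rose and 38 of the 345 that fell. The procedure was run on simulated counts with the same spread for every gene. Those counts lacked the differences in mitochondrial share and the outlying libraries seen here. The run therefore cannot show how well the calls hold in these libraries.

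Lists, members and rules were chosen with earlier results of these data known. Named are the 15 protein-coding genes with the largest changes each way that were past the threshold, averaged 1 FPKM or more in the higher group and did not overlap, leaving out heat shock, AP-1, chemokine and lipid synthesis genes. Of each list, up to 8 called members by smallest p and up to 4 uncalled ones with the highest FPKM follow, then 5 noncoding genes; further called members are named to complete a list, and some called members are not reported here. Newer list symbols were matched to the table's older ones. Alternatives were DESeq2 1.42.0, limma 3.58.1 on log2(FPKM + 1) or + 0.1, other scalings and filters, the mitochondrial share, the replicate block and leaving out each library. The labels do not say that replicate numbers pair the libraries. Correlations of same-numbered deviations ran from -0.48 to 0.38. Differently numbered libraries were not compared, so these values cannot decide whether libraries are paired.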

Additional observations from a re-analysis of the deposited data

Results flagged for a closer look

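In 420 groups of 6 values (FPKM of the genes named above on the log2 scale with 0.1 added, and the mitochondrial share), the gap of the highest or lowest library to its neighbour, divided by the range, was past Dixon's 95% critical value in 15; chance flags about 1 group in 20. On the linear scale 52 were past it. Among IR libraries, IR 6 stood highest in 5: Btg2 (403 FPKM, next 22.2, ratio 0.751), Zfp36 (269 and 55.1, 0.729), Afmid (6.99 and 2.89, 0.701), Nr1d1 (112 and 21.7, 0.698) and Id3 (247 and 64.2, 0.672). IR 5 stood highest for Traf3 (5.86 and 1.82, 0.638) and Mlkl (13.2 and 4.78, 0.634), and IR 1 for Gm45051 (1.52 and 0.83, 0.629). Among sham libraries, sham 1 was highest for Thbd (2.02 and 0.25, 0.663) and lowest for Aen (1.45 and 2.66, 0.629). Sham 2 was lowest for Arg1 (344 and 716, 0.636) and Bak1 (1.66 and 2.79, 0.634). Sham 3 was highest for Psat1 (1.04 and 0.25, 0.718), sham 6 for Mmp9 (0.24 and 0.10, 0.704), and sham 5 was lowest for Slc7a5 (0.17 and 0.38, 0.679).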

How the results depend on the processing

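The 806 higher genes became 390, 394 and 272 in limma with a pseudocount of 1, of 0.1 and without a filter, 85 in the 6 libraries at a mitochondrial share of 15% or more, and 442 to 920 when 1 library was left out. The 345 lower genes became 204, 208 and 95 in those limma fits, 705 in DESeq2, 718 with the share as a covariate, 582 in the libraries under 15% and 32 in those at or above it, and 134 to 640 without 1 library. Samples share only a number in the titles; with the replicate block in the fit 453 were higher and 191 lower, and 55 of the 170 called genes named here lost the call. Other size factors, nuclear genes only and no count filter kept both counts within 1.5 times, as did DESeq2, the covariate and the libraries under 15% for the higher genes and the 12 libraries alone for both. No called gene named here changed sign in any of these fits, and in 372 of 2040 leave-one-out and 425 of 1963 other values it lost the call. These fits reuse the libraries on which the genes were called, so a kept sign was largely fixed by that choice. Of genes not called, Arg1 (0.43), Ass1 (0.36), Egfr (0.13) and Glul (0.0057) turned positive in the libraries at 15% or more, Fga (-0.44), Fgg (-0.13) and Fn1 (-0.16) negative in those under 15%, and with 1 library left out G6pc ran from -0.997 to 0.065 (without sham 1) and Gpx4 from -0.0592 (without sham 2) to 0.231; the cause was not tested. The sets of 3 against 3 libraries have fewer samples by construction. No detection limit was computed.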
